A study of Rattus norvegicus with 8 samples.

Results

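The genes described here are those of the JAK and STAT signalling pathway and its SOCS feedback inhibitors: Socs1, Socs2, Socs3, Socs4, Socs5, Socs6, Cish, Jak1, Jak2 and Stat3. They were chosen by name, as the probes whose transcript accession belongs to one of these 10 rat genes in RefSeq. This gave 13 of the 45598 distinct probes on the array, with 2 probes each for Socs3, Socs6 and Jak1. The cells were NR8383, a line of rat macrophages that came from washing out a lung. They had been exposed to zinc oxide (ZnO) for 4 h, at 4 µg/mL (ZnO 4) or 16 µg/mL (ZnO 16). Each dose has 4 arrays, and the series' design calls them biological replicates; untreated cells were not analysed here. The ZnO 4 cultures are labelled as having 20 passages and the ZnO 16 cultures as having 200, and each dose has its own slide and scan. These 4 differences, in dose, slide, scan and passage label, cannot be told apart.

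JAK kinases sit on the inner side of cytokine receptors and phosphorylate STAT transcription factors, which then enter the nucleus and switch on target genes. Genes of the SOCS family, which includes Cish, are among those targets, and their proteins bind receptors or JAK kinases and shut the signal down. A motif called the SOCS box lets them recruit a ubiquitin ligase that marks bound proteins for destruction. In macrophages Socs3 is best known for limiting signals of the IL-6 family, which run mainly through Jak1 and Stat3, and Socs1 for limiting interferon signals.

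At 16 µg/mL the feedback genes Socs3, Cish and Socs4 were higher than at 4 µg/mL and the transcription factor gene Stat3 was lower. Socs3 was 3.12-fold higher, Cish 2.37-fold and Socs4 1.82-fold, and Stat3 stood at 0.349 times its level at 4 µg/mL. Jak1, Jak2 and Socs5 did not pass the test, and Socs1, Socs2 and Socs6 were too dim, that is not well above background on enough arrays, to be tested. The test was limma over 13464 genes and unnamed features; p-values were adjusted by Benjamini-Hochberg, and 0.05 was the threshold. It called 4 of the 7 tested members, where 41.7% of all genes were called, and the doses did not overlap for the same number of members, where 39.9% of all genes did not overlap. Of the members 3 were called higher, where 19.8% of all genes were, and 1 was called lower, where 21.9% were.

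Levels below are log2 of the processed signal minus the 75th percentile of the same array, and differences are ZnO 16 minus ZnO 4 on that scale, so higher and lower mean relative to that percentile. The 75th percentile itself was a signal of 151 to 516 over the 8 arrays, and an array had 31.4% to 39.3% of its probes well above background. Among the 7 spike-in probes with a signal well above background throughout, the difference between the slides ranged from -0.68 to 1.62 on this scale. The values were -0.68, -0.21, 1.15, 1.19, 1.21, 1.26 and 1.62. Most were positive, so the range is not a symmetric error around no change. The differences of Cish, Socs4, Socs5, Jak1 and Jak2 lie inside that range; that of Socs3 (1.64) is barely above it, and that of Stat3 (-1.52) lies below it. Of 12 macrophage markers 8 were well above background on every array, among them Cd68, Csf1r and Spi1, and 3 were so on no array. None of the epithelial, T cell, B cell or neutrophil markers was; of the fibroblast markers Dcn was, and of the endothelial markers Pecam1 and Cdh5 were.

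**Figure D1:**
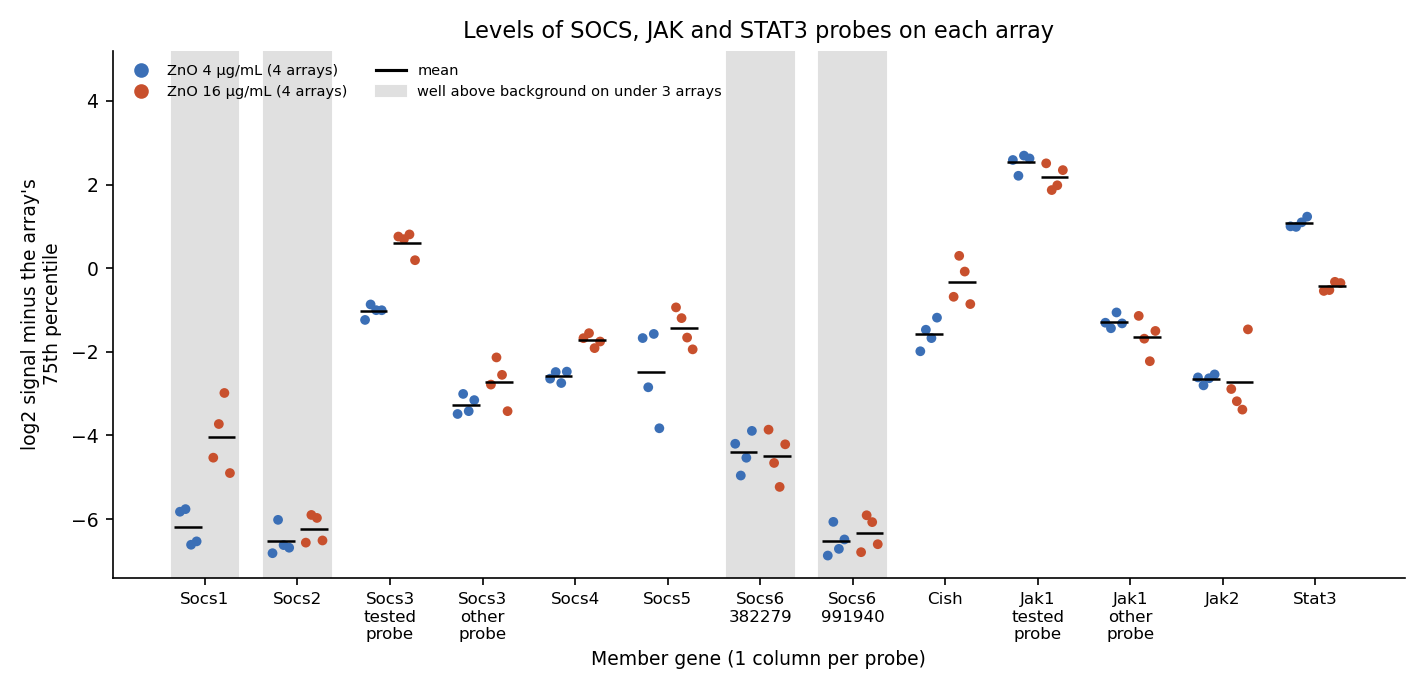
Levels of the 13 member probes on each array, as log2 signal minus the array's 75th percentile, with blue points for the 4 arrays at 4 µg/mL, red points for the 4 at 16 µg/mL and a bar at each mean; grey marks a dose with fewer than 3 arrays well above background. The red points of Socs3 (tested probe), Socs4 and Cish lie wholly above the blue ones, those of Stat3 wholly below, and Socs1, Socs2 and Socs6 lie in the dim range.

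Socs3 encodes the inhibitor that binds the shared receptor chain of the IL-6 family and the JAK kinase on it. Its tested probe stood at -1.24, -0.87, -1.01 and -1.01 in ZnO 4 replicates 1 to 4. In ZnO 16 replicates 1 to 4 it stood at 0.76, 0.69, 0.81 and 0.19. The doses did not overlap and were 1.06 apart at their nearest, while the arrays of a dose spanned 0.37 at 4 µg/mL and 0.62 at 16 µg/mL. Socs3 rose by 1.64 (SE 0.16, n = 4 per dose, adjusted p = 3.75e-05 with limma), and 8.41% of all genes differed by more in either direction. The call was lost without scaling (0.89, adjusted p = 0.0783) and with spike-ins (0.47, adjusted p = 0.335). This probe is printed 10 times on each array, which gives a direct view of the error between spots of an array. Labelling and hybridisation are shared by these spots, so error from those steps is not in that view. The SD of the 10 spots within an array was 0.069 to 0.176, whereas the SD over the arrays was 0.15 at 4 µg/mL and 0.28 at 16 µg/mL. ZnO 16 replicate 4 was the lowest of its dose on this probe, and its spots lay apart from those of the other 3 arrays.

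**Figure D2:**
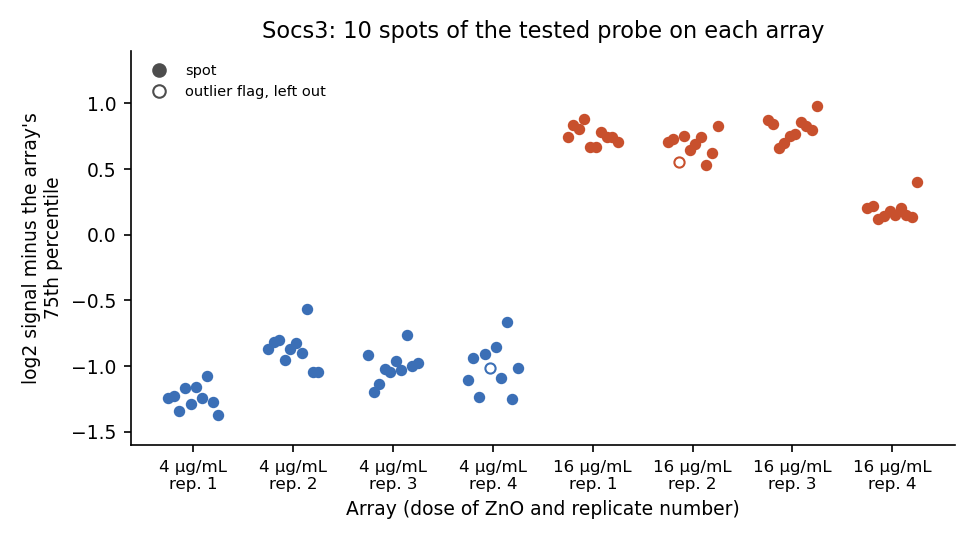
Level of each of the 10 spots of the tested Socs3 probe on each array, as log2 signal minus the array's 75th percentile; open points carry an outlier flag and were left out. The spots of an array lie close together (SD 0.069 to 0.176), and every spot at 16 µg/mL is above every spot at 4 µg/mL.

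The second Socs3 probe, a dimmer one, gave a smaller difference. It stood at -3.49, -3.01, -3.42 and -3.16 at 4 µg/mL and at -2.79, -2.14, -2.55 and -3.42 at 16 µg/mL. The doses overlapped, since ZnO 16 replicate 4 was again the lowest of its dose and lay within the range at 4 µg/mL. Its difference was 0.54 (SE 0.28), which did not pass the test over 15576 probes (adjusted p = 0.140 with limma), where 41.7% of probes were called. The 2 probes thus disagree in size, and the rise of Socs3 rests on the brighter one, with both of them positive.

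Cish encodes CIS, a family member best known for restraining signals that run through STAT5. It stood at -1.99, -1.47, -1.67 and -1.18 in ZnO 4 replicates 1 to 4. At 16 µg/mL it stood at -0.68, 0.29, -0.08 and -0.86. The doses did not overlap, but the gap between them, 0.32, was smaller than the span within either dose, 0.80 and 1.15. Cish rose by 1.25 (SE 0.27, adjusted p = 0.00457 with limma, n = 4 per dose). The call was lost without scaling (0.49, adjusted p = 0.302) and with spike-ins (0.076, adjusted p = 0.882).

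The RefSeq promoters of these genes are shown where they carry the letters that STAT dimers or interferon regulatory factors are known to bind. The window runs from 250 bases before to 50 bases after the annotated start, in build GRCr8, and 7 of the 10 members have one in the table used. The STAT-type motif searched was TTCNNNGAA, which reads the same on both strands, and the interferon-type motif was GAAA, any 2 bases and GAAA again, searched on both strands. The Cish window, chr8:116850719-116851018 on the plus strand, held 4 matches to the first motif and 0 to the second. Capitals mark the matches:
Cish: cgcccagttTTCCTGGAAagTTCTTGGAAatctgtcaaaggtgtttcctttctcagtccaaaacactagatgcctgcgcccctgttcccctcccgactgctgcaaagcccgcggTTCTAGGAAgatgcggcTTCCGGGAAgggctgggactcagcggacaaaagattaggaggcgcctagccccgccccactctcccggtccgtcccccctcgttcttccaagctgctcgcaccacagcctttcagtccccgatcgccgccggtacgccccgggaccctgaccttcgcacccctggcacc
Of 33469 rat promoter windows of this length, 8.87% held at least 1 match to TTCNNNGAA, 0.547% held 2 or more and only 2 windows held 4 or more. The matches in Cish, TTCCTGGAA, TTCTTGGAA, TTCTAGGAA and TTCCGGGAA, begin at positions -241, -230, -136 and -119 from the start. The window of Socs1, chr10:5389324-5389623 on the plus strand, held 1 match to TTCNNNGAA and 2 to the interferon-type motif, which overlap each other and run on the plus strand:
Socs1: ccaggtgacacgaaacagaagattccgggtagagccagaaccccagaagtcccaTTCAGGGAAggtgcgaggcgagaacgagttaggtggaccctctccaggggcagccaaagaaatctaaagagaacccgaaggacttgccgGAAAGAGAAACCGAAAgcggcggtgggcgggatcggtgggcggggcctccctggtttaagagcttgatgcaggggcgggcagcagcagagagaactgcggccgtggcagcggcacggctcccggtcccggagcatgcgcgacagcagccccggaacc
The interferon-type motif was found in 3.92% of all windows, and 0.266% held 2 or more. The windows of Socs3, Socs4, Socs6, Jak2 and Stat3 held neither motif. The Socs3 window runs into the coding sequence soon after its annotated start, so promoter bases farther upstream may lie outside it. Bases outside the windows were not searched. A match says only that the letters are there; binding was not measured.

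Socs1 encodes the inhibitor that blocks JAK kinases directly and is strongly induced by interferons in macrophages. At 4 µg/mL 0 of 4 arrays had it well above background, and at 16 µg/mL 1 of 4 did, so it was not among the tested genes. It stood at -5.83, -5.76, -6.62 and -6.54 at 4 µg/mL. At 16 µg/mL it stood at -4.53, -3.73, -2.99 and -4.90, with ZnO 16 replicate 3 as the array well above background. The doses did not overlap, and the measured means were -6.19 ± 0.45 and -4.04 ± 0.86 (SD, n = 4). Because most of these values are not above background at either dose, no fold is given. With no filter on dim probes the fitted difference was 2.15 (SE 0.55, adjusted p = 0.0133 with limma), a value made mostly of signals below background.

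Socs2, known as a brake on growth hormone signalling, was not well above background on any of the 8 arrays. Its values ranged from -6.82 to -6.02 at 4 µg/mL and from -6.57 to -5.90 at 16 µg/mL, and no fold is given. Of the Socs6 probes 1 was likewise dim on all 8 arrays, and the other was well above background on 1 array at 4 µg/mL and on 2 at 16 µg/mL. That Socs6 probe stood at -4.20, -4.96, -4.54 and -3.89 at 4 µg/mL and at -3.86, -4.66, -5.23 and -4.21 at 16 µg/mL, with the doses overlapping fully.

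Socs4 and Socs5, 2 closely related members with long N-terminal regions that are tied to EGF receptor signalling, had similar mean differences and very different spreads. Socs4 stood at -2.64, -2.48, -2.75 and -2.48 at 4 µg/mL and at -1.67, -1.56, -1.91 and -1.75 at 16 µg/mL. The doses were 0.56 apart at their nearest and each spanned less than that, 0.27 and 0.36. Socs4 rose by 0.86 (SE 0.16, adjusted p = 0.00231 with limma, n = 4 per dose), a direction that flips to -0.31 (adjusted p = 0.559) when arrays are scaled to the spike-ins. Socs5 stood at -1.67, -2.85, -1.57 and -3.83 at 4 µg/mL and at -0.94, -1.20, -1.66 and -1.94 at 16 µg/mL. The doses overlapped, and the arrays at 4 µg/mL spanned 2.26. The Socs5 difference of 1.05 (SE 0.46) did not pass the test (adjusted p = 0.0923 with limma); its sign flips with spike-in scaling (-0.12). The Socs5 spot lies in an area of low signal on ZnO 4 replicate 4, where it was not above background, and in a weaker one on ZnO 16 replicate 4. With these areas masked the difference was 0.77 (adjusted p = 0.106), and without ZnO 4 replicate 4 it was 0.60. The difference was called with the replicate number as a block (adjusted p = 0.0417) and with normexp background correction (0.83, adjusted p = 0.0198).

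Jak1 and Jak2, the kinases that start the signal, did not pass the test. The tested Jak1 probe stood at 2.59, 2.21, 2.69 and 2.62 at 4 µg/mL and at 2.51, 1.87, 1.98 and 2.35 at 16 µg/mL. Its difference was -0.35 (SE 0.17, 95% interval -0.73 to 0.02, adjusted p = 0.118 with limma). The second Jak1 probe gave -0.36 (SE 0.22, adjusted p = 0.217), nearly the same size, and both overlapped between doses. Jak2 stood at -2.61, -2.80, -2.63 and -2.54 at 4 µg/mL, a span of 0.26. At 16 µg/mL it stood at -2.89, -3.18, -3.38 and -1.46. ZnO 16 replicate 4 was above every array at 4 µg/mL, while the other 3 arrays of that dose were below every one of them. The Jak2 difference was -0.08 (SE 0.37, 95% interval -0.90 to 0.74, adjusted p = 0.874 with limma), so neither a fall of 0.90 nor a rise of 0.74 is outside its error. Without ZnO 16 replicate 4 it was -0.50 (adjusted p = 0.0819). Its sign flips without ZnO 16 replicate 2 or 3, with median scaling and with normexp.

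Stat3, the transcription factor that carries IL-6 family signals to the nucleus, had the smallest error of the members. It stood at 0.9998, 0.987, 1.096 and 1.23 in ZnO 4 replicates 1 to 4 and at -0.54, -0.52, -0.33 and -0.36 in ZnO 16 replicates 1 to 4. The doses were 1.31 apart at their nearest, and each spanned no more than 0.25. Stat3 fell by 1.52 (SE 0.12, n = 4 per dose, adjusted p = 7.66e-06 with limma), and 9.77% of all genes differed by more in either direction. The array holds 1 Stat3 probe under this rule, so no second probe bears on it. Stat3 was called lower in all 22 other settings run, with differences of -2.69 to -1.24.

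**Figure D3:**
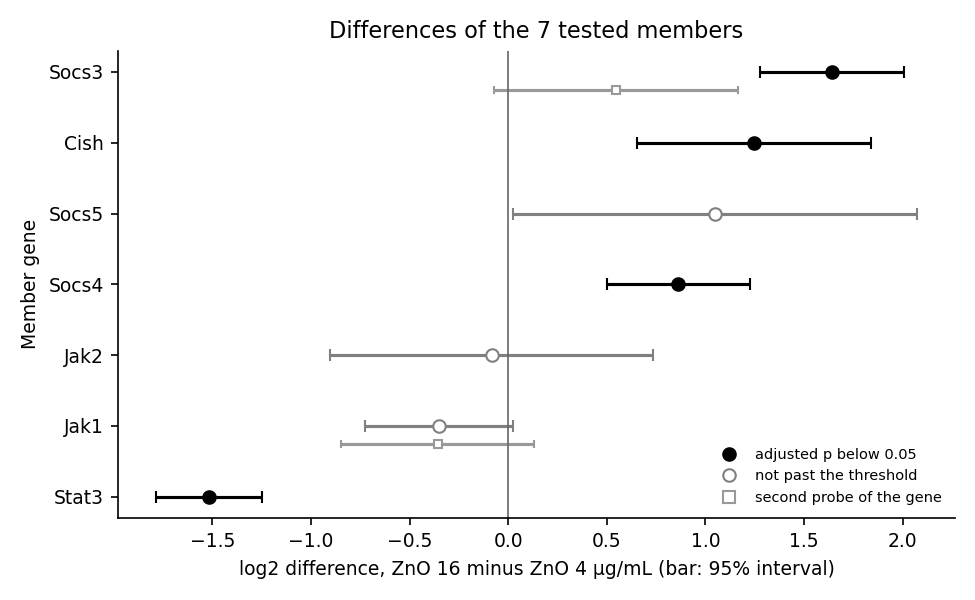
Fitted log2 differences, ZnO 16 minus ZnO 4, of the 7 tested members with 95% intervals; filled points passed the threshold and squares are second probes. Socs3 (1.64), Cish (1.25) and Socs4 (0.86) lie above 0 and Stat3 (-1.52) below, while the intervals of Jak1 and Jak2 include 0 and Socs5 (0.02 to 2.07) missed the threshold after adjustment; with spike-in scaling Socs4 and Socs5 are below 0.

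Ratios between members on the same array do not depend on a constant scaling of each array. They moved with dose for each member set against Stat3. They do depend on background correction: with normexp Socs3 differed by 1.32 and Stat3 by -1.24, against 1.64 and -1.52 as reported. Spike-in probes also differed unequally between the slides, from -0.68 to 1.62, so ratios between spike-in probes moved between the slides too. The log2 ratio of Socs3 to Stat3 was -2.24, -1.86, -2.10 and -2.24 at 4 µg/mL. At 16 µg/mL it was 1.30, 1.22, 1.13 and 0.55, a change of 3.16. The ratio of Cish to Stat3 went from -2.66 ± 0.27 to 0.11 ± 0.57 (SD, n = 4). The ratio of Socs4 to Stat3 went from -3.67 ± 0.15 to -1.29 ± 0.25 and that of Jak1 to Stat3 from 1.45 ± 0.18 to 2.61 ± 0.34. None of these ratios overlapped between doses, nor did those of Socs5 and Jak2 to Stat3. Stat3 itself fell with a small spread, so a gene with a steady level would separate against it too. The share of all genes whose ratio to Stat3 did not overlap was not computed. A ratio shows unequal change and does not say which of the genes moved; the value at one dose also depends on the probes, so only its change between doses is read here.

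Within the higher dose the arrays fell into the same pairs for some members and not for others. ZnO 16 replicates 2 and 3 had 75th percentile signals of 151 and 190, against 374 and 381 in replicates 1 and 4. On the dimmer pair Cish (0.29 and -0.08) was higher than on the brighter pair (-0.68 and -0.86). Socs1 (-3.73 and -2.99 against -4.53 and -4.90) was also higher there, and Jak1 (1.87 and 1.98 against 2.51 and 2.35) and Jak2 (-3.18 and -3.38 against -2.89 and -1.46) were lower. Socs1 was well above background only on replicate 3 of these arrays. Before scaling, Cish was not higher on the dimmer pair (signals of 185 and 180 against 233 and 210). Of the tested members, Socs3, Socs4, Socs5 and Stat3 did not split this way. The part of the array signal in these member values was not tested.

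Among the other kinases and transcription factors of the pathway, 1 of 7 tested genes was called higher and 1 lower, with a median difference of 0.01 (0.01 over all genes). That is 28.6% called, where 41.7% of all genes were called, 19.8% higher and 21.9% lower. Stat5b, a STAT5 gene, stood at -1.52 to -1.09 at 4 µg/mL and at -0.77 to -0.44 at 16 µg/mL. It rose by 0.71 (SE 0.15, adjusted p = 0.00364), a direction that flips without scaling (-0.04) and with spike-in scaling (-0.46). Irf9, a DNA-binding subunit of the complex that carries type I interferon signals, fell by 0.84 (SE 0.13, adjusted p = 0.000832), and its second probe differed by -1.29. Stat2 (0.01), Stat5a (-0.37), Stat6 (0.28) and Tyk2 (0.11) did not pass. Adjusted p-values here and below are from the same limma fit.

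Of the 21 ligands listed only 4 were tested, and 1 was called higher and 1 lower, where 41.7% of all genes were called. Oncostatin M (Osm), an IL-6 family cytokine made by macrophages, was dim on all arrays at 4 µg/mL and was at least 19.5-fold higher at 16 µg/mL (adjusted p = 8.64e-07). That bound holds for this scaling and background only: the difference was 3.90 without scaling, 3.48 with spike-ins and 2.27 with normexp, called in each. Csf3, which encodes the growth factor G-CSF, was dim on all arrays at 16 µg/mL and was at least 3.27-fold lower there (adjusted p = 0.00263), a call lost with normexp (-0.48, adjusted p = 0.15). Ebi3 (-0.08) and Il7 (-0.49) did not pass, and the other listed ligands, Il6 and Il10 among them, were not tested.

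Of 13 tested receptors 3 were called higher and 1 lower, with a median of 0.00. The share called was 30.8%, below the 41.7% of all genes. The interleukin 4 receptor gene Il4r rose by 1.69 (SE 0.24, adjusted p = 0.000401), a call lost without scaling (0.94, adjusted p = 0.0992) and with spike-ins (0.52, adjusted p = 0.325). Csf2ra, the GM-CSF receptor chain, rose by 0.98 (SE 0.22; 0.22 and not called without scaling, -0.20 with spike-ins) and Il3ra, the interleukin 3 receptor chain, by 0.68 (SE 0.16; -0.08 without scaling and -0.49 with spike-ins). Ifngr2, a chain of the interferon gamma receptor, fell by 0.65 (SE 0.11, adjusted p = 0.00146). Il6st, which encodes the receptor chain shared by the IL-6 family, differed by -0.21 (SE 0.33), and Il6r by -0.07.

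Of 10 other negative regulators tested, 1 (10%) was called higher and 0 lower, where 41.7% of all genes were called. This was Pias2, which encodes a SUMO ligase (0.55, SE 0.12, adjusted p = 0.00498); its second probe differed by -0.06, and the sign of the tested one flips without scaling (-0.20) and with spike-ins (-0.62). The phosphatase genes Ptpn1 (0.16), Ptpn2 (-0.09), Ptpn6 (0.31) and Ptpn11 (-0.15) did not pass.

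The SOCS box works with elongins, cullin 5 and a RING protein. Of 8 tested genes of this ligase 2 were called higher and 1 lower (37.5% called, against 41.7% of all genes). Rnf7, which encodes that RING protein, stood at -0.03, -0.18, -0.60 and -2.11 at 4 µg/mL and at -3.04, -3.53, -3.46 and -3.27 at 16 µg/mL. The doses did not overlap although ZnO 4 replicate 4 was well below the others of its dose, and Rnf7 fell by 2.60 (SE 0.40, adjusted p = 0.000637; -1.20 with normexp). Elob (0.56, SE 0.17) and Rbx1 (0.44, SE 0.13) were called higher, but their second probes differed by 0.27 and -0.06 and did not pass. Both are negative without scaling (-0.19 and -0.32) and with spike-ins (-0.61 and -0.73), and both calls were lost with normexp, with the mean of a gene's probes and on leaving out ZnO 4 replicate 1, ZnO 4 replicate 3 or ZnO 16 replicate 2. Cul5 differed by -0.08 (SE 0.25).

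Of 14 tested textbook STAT3 targets, 7 were called higher and 2 lower, with a median of 0.74; 41.7% of all genes were called. Among the genes called higher, Fos, Bcl2l1 and Pim1 had dim probes throughout the lower dose. They entered the test only through their signal at the higher dose, so the filter favoured a rise for them. The count of rises and the median lean partly on these genes. The immediate early gene Fos stood at -6.11 to -4.91 at 4 µg/mL and at -0.40 to 0.39 at 16 µg/mL. Its difference was 4.28 with dim spots raised to the lowest signal well above background on their array and 2.69 with normexp, and it was called in both. Junb, an AP-1 subunit, rose by 3.57 (SE 0.40; 3.23 with the low-signal areas masked, 2.34 with normexp). Cebpd, a transcription factor gene of the acute phase response, fell by 0.97 (SE 0.11, adjusted p = 0.000117), and Il4r, Bcl2l1, Icam1, Pim1 and Mcl1 were the other genes called higher. Pim1, a kinase gene, was at least 1.95-fold higher, a bound because its probe was dim (not well above background) on all arrays at 4 µg/mL. It was 0.68 with normexp (adjusted p = 0.0352), and the call was lost without scaling (0.55, adjusted p = 0.348) and with spike-ins (0.13, adjusted p = 0.824). Il4r is on this list and among the receptors, and many of these genes have other known inducers.

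**Figure D4:**
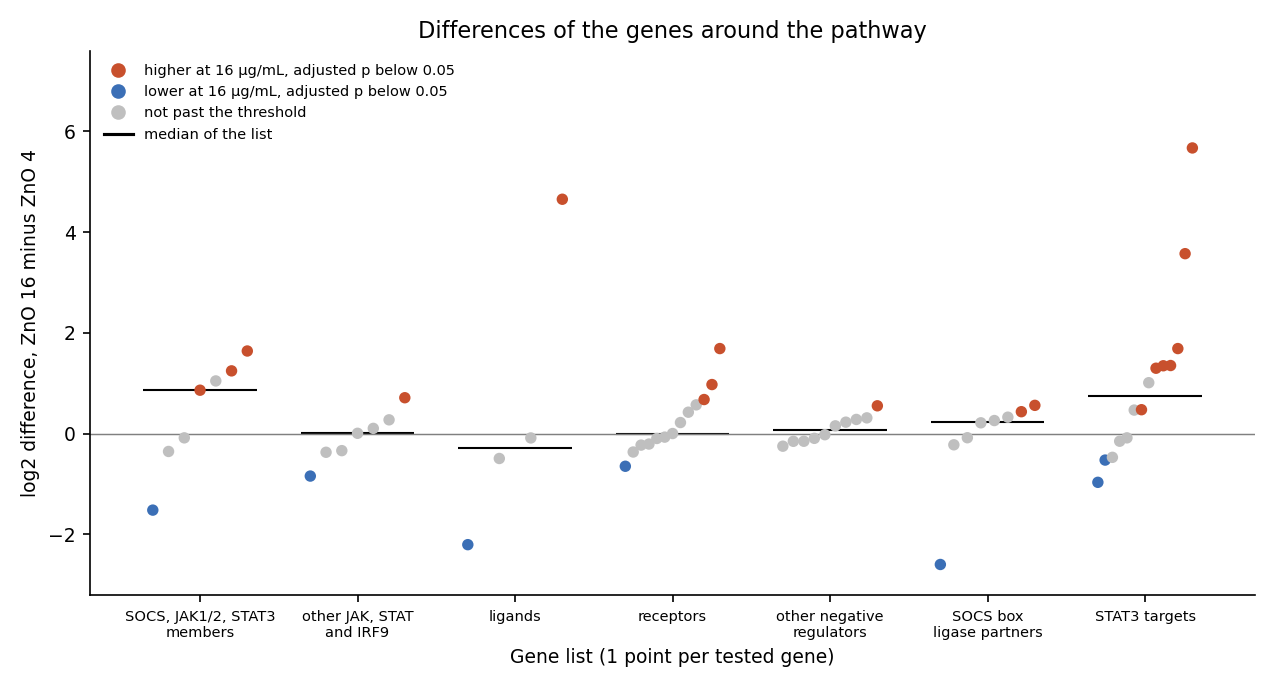
Fitted log2 differences, ZnO 16 minus ZnO 4, of the tested genes in each list, 1 point per gene, red for called higher, blue for called lower, grey for not past the threshold, with a bar at each list's median. Most lists straddle 0 (median of all genes 0.01), with Fos, Osm and Junb at the top and Rnf7 and Csf3 at the bottom. Without scaling or with spike-in scaling the points shift down together. Of the members and named genes, Stat5b, Il3ra, Pias2, Elob and Rbx1 change sign in both settings. Socs4, Socs5 and Csf2ra do so with spike-ins only. Signs of the other plotted genes were not followed under these settings.

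The 3 named genes whose levels over the 8 arrays were most like those of Socs3, by Pearson correlation among 7910 genes, were Rhob (0.993), Ppp1r15a (0.991) and Sf1 (0.990). For Stat3 they were Ssbp1 (0.993), Lcmt2 (0.991) and Exo1 (0.988). These correlations describe 8 arrays in 2 groups that share a slide within each dose, so they mostly follow the difference between doses.

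The scaling between arrays moved all genes together. The median gene differed by 0.01 with the 75th percentile, by 0.17 with the median, by -0.75 without scaling and by -1.17 with the spike-ins. Without scaling Socs4 differed by 0.11 (adjusted p = 0.849), the calls of Socs3 and Cish were lost, and Stat3 was still called lower. Relative to the median gene of each setting, Socs3 stood at 1.64 without scaling and at 1.64 with spike-ins, and Cish at 1.24 in both. These scalings differ by 1 constant per array, so this agreement is fixed by arithmetic and is no test. With normexp, where the values can change, Socs3 stood at 1.17 and Cish at 0.78. The rises of Socs3, Cish and Socs4 are rises against the bulk of genes on the array. With the spike-ins 8383 of the 13464 genes were called lower, and so were 3 of the 7 tested members, Jak1, Jak2 and Stat3.

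**Figure D5:**
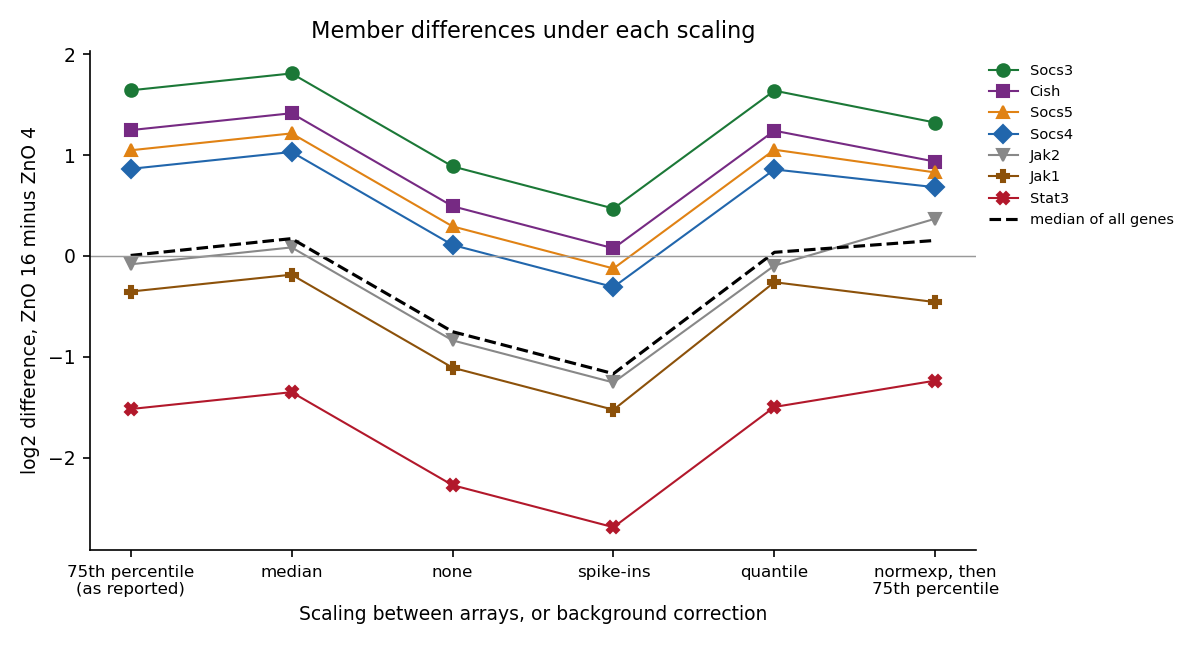
Fitted log2 differences, ZnO 16 minus ZnO 4, of the 7 tested members (coloured lines) and the median of all genes (dashed) under 5 ways of scaling or background correction beside the one reported. With median, no or spike-in scaling the lines shift together with the median gene. With normexp they do not: the median gene is at 0.15, Socs3 at 1.32, Jak1 at -0.46 and Jak2 at 0.37. Stat3 stays below the median gene and Socs3 above it in each setting, and with spike-ins Socs4 (-0.31) and Socs5 (-0.12) fall below 0.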

How the data were processed

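Cy3-labelled cRNA was hybridised to 1-colour Agilent arrays, per the labels' protocols. The deposited files are scanner output; the submitters' processing notes name Agilent Feature Extraction, version 11.0.1.1. They give a linear intensity per spot from which, per the file headers, background and spatial trend were removed, with no scaling between arrays. The other deposited columns used are median intensities and 0 or 1 flags.

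Spots with non-uniformity or population outlier flags were left out. From each log2 signal the 75th percentile of the non-control spots of its array was subtracted, and spots of a probe were averaged. A probe was kept if well above background on at least 3 of 4 arrays of a dose, and the brightest probe stood for its gene. Transcript accessions, versions dropped, were looked up in a RefSeq table of assembly GRCr8, used for names and promoters, since the headers name another build; 21109 probes got a symbol. No spot was saturated. The test was limma (version 3.58.1, R 4.3.3; eBayes with an intensity trend, two-sided), checked on simulated data. The number of arrays limits the precision. Nothing but the design text says that arrays came from separate cultures.

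A gene and a list with its targets are not reported here. The members, lists and tests were chosen with earlier results of these data known. Named genes are all members and, per list, of the called genes the 3 that changed most in the more common direction and the 1 that changed most in the opposite one. For the members with the largest called differences, the most correlated genes are named. Mcl1, Bcl2l1, Icam1 and genes given without a call were named after their values were seen. Alternatives covered scaling, background, filters, flags, probes, low-signal areas (blocks of 16 by 16 spots with a median below -0.5 against the other arrays of the dose), variance model, replicate block and each array left out.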

Additional observations from a re-analysis of the deposited data

Results flagged for a closer look

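Of 60 groups of 4 arrays checked for members and named genes, 2 had an array far from the others; chance flags about 1 in 20 groups. Il4r stood at -2.50 in ZnO 4 replicate 4, where the nearest of the other arrays of that dose was at -3.38. Cebpd stood at 0.47 in ZnO 16 replicate 1, where the nearest was at 0.58. No member was among them.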

How the results depend on the processing

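Each tested member was refitted in 22 other settings, Socs5 in 21 because it fails the stricter filter. The calls of Socs3, Cish and Socs4 were kept in all but the unscaled and spike-in settings, and that of Stat3 in all. Without scaling, 2 of 7 members were called (0 higher), where 34.5% of all genes were called and 4.95% of those calls were higher. Socs3 was at 0.89, Socs4 at 0.11, Cish at 0.49 and Jak1 at -1.11 (called). In that setting 230 genes were called higher, and 14 of 59 tested pathway genes were called, against 22 as reported. With spike-in scaling Socs3 was at 0.47, Cish at 0.076, Socs4 at -0.31, Socs5 at -0.12, Jak1 at -1.52 and Jak2 at -1.25 (both called). Then 8543 genes (63.5%) were called, 160 higher and 8383 lower, with 37 of the 59 tested pathway genes. Signs also turned for Stat5b (-0.040), Il3ra (-0.076), Pias2 (-0.20), Elob (-0.19) and Rbx1 (-0.32) without scaling. With spike-ins they turned for Stat5b (-0.46), Csf2ra (-0.20), Il3ra (-0.49), Pias2 (-0.62), Elob (-0.61) and Rbx1 (-0.73). With normexp Socs5 was called (0.83) and Jak2 was at 0.37; with median scaling Jak2 was at 0.085. The cause was not tested.

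Leaving out each array in turn gave 1.57 to 1.78 for Socs3, 1.04 to 1.42 for Cish, 0.81 to 0.93 for Socs4, 0.60 to 1.35 for Socs5, -0.46 to -0.25 for Jak1, -0.50 to 0.14 for Jak2 and -1.55 to -1.47 for Stat3. Jak2 was positive without ZnO 16 replicate 2 (0.07) or 3 (0.14). Leaving out both arrays numbered 4, chosen after seeing the data, kept 4 members called, where 41.9% of all genes were called. The 2 doses share replicate numbers, and whether the numbers pair the arrays was not settled. Same-numbered deviations correlated at 0.248, 0.404, -0.22 and -0.0288, and 2 of 4 arrays of each dose correlated best with their own number. With the replicate block 5471 genes (40.6%) and 5 members were called, the added one being Socs5 (1.05, adjusted p = 0.0417 with limma).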
